A study of Homo sapiens with 15 samples.

Results

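The 10 genes described here, ETS2, PSMG1, BRWD1, HMGN1, DYRK1A, VPS26C, TTC3, PIGP, HLCS and MORC3, are neighbours of the transcription factor gene ERG on the long arm of chromosome 21. They were chosen by name and ordered by the distance of their annotated start from the most used ERG start, among 33367 genes for which estimated read counts could be summed. The 15 RNA libraries, in 5 groups of 3, came from Reh cells. Reh is a B-lymphoblastic leukaemia line of human origin with the ETV6::RUNX1 fusion and no normal ETV6. In sgERG libraries, cells with doxycycline-inducible dCas9-KRAB, a repressor domain on an inactive Cas9, carried a guide to the promoter of ERG. In sgCtrl libraries the same cells carried a non-targeting guide, and both groups were sorted as guide-vector carriers and given 500 ng/ml doxycycline for 72 h. In ETV6_WT, ETV6_R399C and tagBFP libraries, doxycycline at 500 ng/ml for 48 h induced ETV6 with a V5 tag, in its wild-type form or as R399C, or else a blue fluorescent protein. R399C lies in the DNA-binding domain of ETV6, a repressor of the ETS family. All cells were transduced populations of this line, and nothing in the labels says that replicates were separate cultures, so p-values measure the spread between these libraries.

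Library totals ran from 31881225 to 35735920 reads with sgERG, 39873358 to 52481351 with sgCtrl and 22040338 to 34046795 in the ETV6 experiment. Of 9 B-lymphoblast markers, 8 reached at least 1 CPM in every library, while VPREB1 was listed at 0. Among the 16 markers of other lineages, CD3D, CD2, HBB, ALAS2, PF4 and CDH5 were listed at 0. MPO and the megakaryocyte marker ITGA2B reached at least 1 CPM in every library. The summed megakaryocyte markers ran from 3.39 CPM in a tagBFP library to 10.4 CPM in an sgERG library. The summed B-lymphoblast markers stood at 7344.9 to 7464.9 CPM in sgERG libraries, against 8502.5 to 8604.1 CPM in sgCtrl libraries. The summed myeloid markers, of which MPO alone reached 1 CPM in every library, stood at 94.8 to 109 CPM in sgERG libraries, against 73.9 to 76 CPM in sgCtrl libraries. In the ETV6 experiment the B-lymphoblast sums were 6606.1 to 6798.8 CPM with ETV6_WT and 6255.1 to 6362.6 CPM with ETV6_R399C, against 5211.8 to 5273.7 CPM with tagBFP. The myeloid sums there were 57.2 to 59 CPM with ETV6_WT and 73.2 to 78 CPM with ETV6_R399C, against 39.5 to 41.2 CPM with tagBFP. In the bulk RNA used here, fewer cells of a type and less RNA per cell cannot be told apart, and the part of these marker shifts in the values below was not tested.

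CRISPR interference deposits repressive chromatin around the guide's site, and the reach of that chromatin along the chromosome is one reason to look at genes beside the targeted promoter. ERG and its neighbour ETS2 encode activating transcription factors of the ETS family, which bind a GGAA core, and ETV6 binds the same core and represses. The stretch of chromosome 21 around them is the one long studied in Down syndrome, where extra copies of HMGN1 and DYRK1A have been tied to B-cell leukaemia.

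The promoter windows of ERG, the gene that was targeted, and of ETS2 and HLCS, the neighbours with the largest changes, are printed first because the ETS core can be read in them. Each is the RefSeq sequence (GRCh38.p14) that ends at the start nearest to the most abundant protein-coding transcript in sgCtrl, cut where an annotated exon of the gene begins. All 3 lie within introns of transcripts that start farther out. Capitals mark GGAA on either strand, which reads TTCC on the other. The ERG window lies at chr21:38498484-38498727 on the reverse strand, the ETS2 window at chr21:38805679-38805830 on the forward strand and the HLCS window at chr21:36966670-36966919 on the reverse strand.
ERG: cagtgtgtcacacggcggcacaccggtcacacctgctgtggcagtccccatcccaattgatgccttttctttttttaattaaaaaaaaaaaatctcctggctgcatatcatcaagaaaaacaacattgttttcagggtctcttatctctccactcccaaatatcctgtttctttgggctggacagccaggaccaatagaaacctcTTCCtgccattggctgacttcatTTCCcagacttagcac
ETS2: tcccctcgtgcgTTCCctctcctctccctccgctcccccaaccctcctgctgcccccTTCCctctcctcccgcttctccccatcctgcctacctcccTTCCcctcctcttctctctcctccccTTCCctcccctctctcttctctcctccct
HLCS: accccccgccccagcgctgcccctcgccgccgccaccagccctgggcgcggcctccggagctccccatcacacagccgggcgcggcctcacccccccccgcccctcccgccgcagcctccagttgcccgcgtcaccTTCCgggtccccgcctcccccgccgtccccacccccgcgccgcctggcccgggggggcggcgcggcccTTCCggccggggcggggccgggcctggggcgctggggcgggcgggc
The ERG stretch holds 2 such cores, the ETS2 stretch 4 in a run rich in pyrimidines, and the HLCS stretch 2. Over the full 250 bases before the start, ERG had 2, ETS2 6, PSMG1 0, BRWD1 2, HMGN1 4, DYRK1A 2, VPS26C 5, TTC3 3, PIGP 0, HLCS 2 and MORC3 4. These full windows can run into annotated exons of the gene. The bases ahead of the first such exon numbered 0 for PSMG1, HMGN1, DYRK1A and VPS26C and 63 for BRWD1. The windows of TTC3 and PIGP overlap each other. GGAA on either strand occurs in 92.7% of the 35116 RefSeq promoters of this length, with a median of 3. The longer ETS site CCGGAAGT, which contains the core, was found on either strand in MORC3 alone among these 11 windows and in 3.42% of all promoters. The pair GGAAGGAA, the unit of GGAA microsatellites, was found in none of the 11 windows and in 3.06% of all promoters. These letters are a description of the windows and mark no site of binding.

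ERG itself fell to 20.0% of its sgCtrl level with sgERG. It stood at 104.2, 109.6 and 101.5 CPM (reads per 1000000 reads of named genes, after TMM scaling) in sgERG libraries, against 529.5, 527 and 517.5 CPM in sgCtrl libraries. The groups lay far apart, with a log2 fold change of -2.32 ± 0.04 (SE) and an adjusted p of 9.2e-10 (edgeR, quasi-likelihood, Benjamini-Hochberg over all genes tested), and every adjusted p below comes from that test unless another tool is named. Of the annotated ERG transcripts, 5 start between positions 38498442 and 38498483 and 7 start about 0.163 Mb farther towards the telomere, between 38660667 and 38661780. The inner ones summed to 85.2 ± 4.08 CPM with sgERG and 481.9 ± 7.24 CPM with sgCtrl (SD, n = 3 each). The outer ones summed to 13.3 ± 2.89 CPM with sgERG and 24.9 ± 0.796 CPM with sgCtrl (SD, n = 3 each). Distances below run from position 38498483, the start of the transcript with the most reads in sgCtrl, and the order of the genes is the same from the outermost start. The position of the guide is not given in the sources used here.

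With sgERG, 3 of the 10 neighbours rose, none fell and 7 did not pass the test. Of all 13464 genes tested in this comparison, 14.6% passed it, 6.89% higher and 7.74% lower. ETS2 rose 2.13-fold, HLCS 1.29-fold and PSMG1 1.25-fold. With DESeq2, in a fit of all 15 libraries or without sgERG replicate 3, 5 passed, the others being HMGN1 and DYRK1A. The 14.6% is from the main fit, and the share of all genes can differ under these settings. In 6 of the 10 the libraries of the groups did not overlap, which held for 34.6% of all genes tested. The median log2 fold change of the 10 was 0.08, against 0 over all genes except ERG. No neighbour had a 95% interval that reached below 87.8% of its sgCtrl level.

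**Figure D1:**
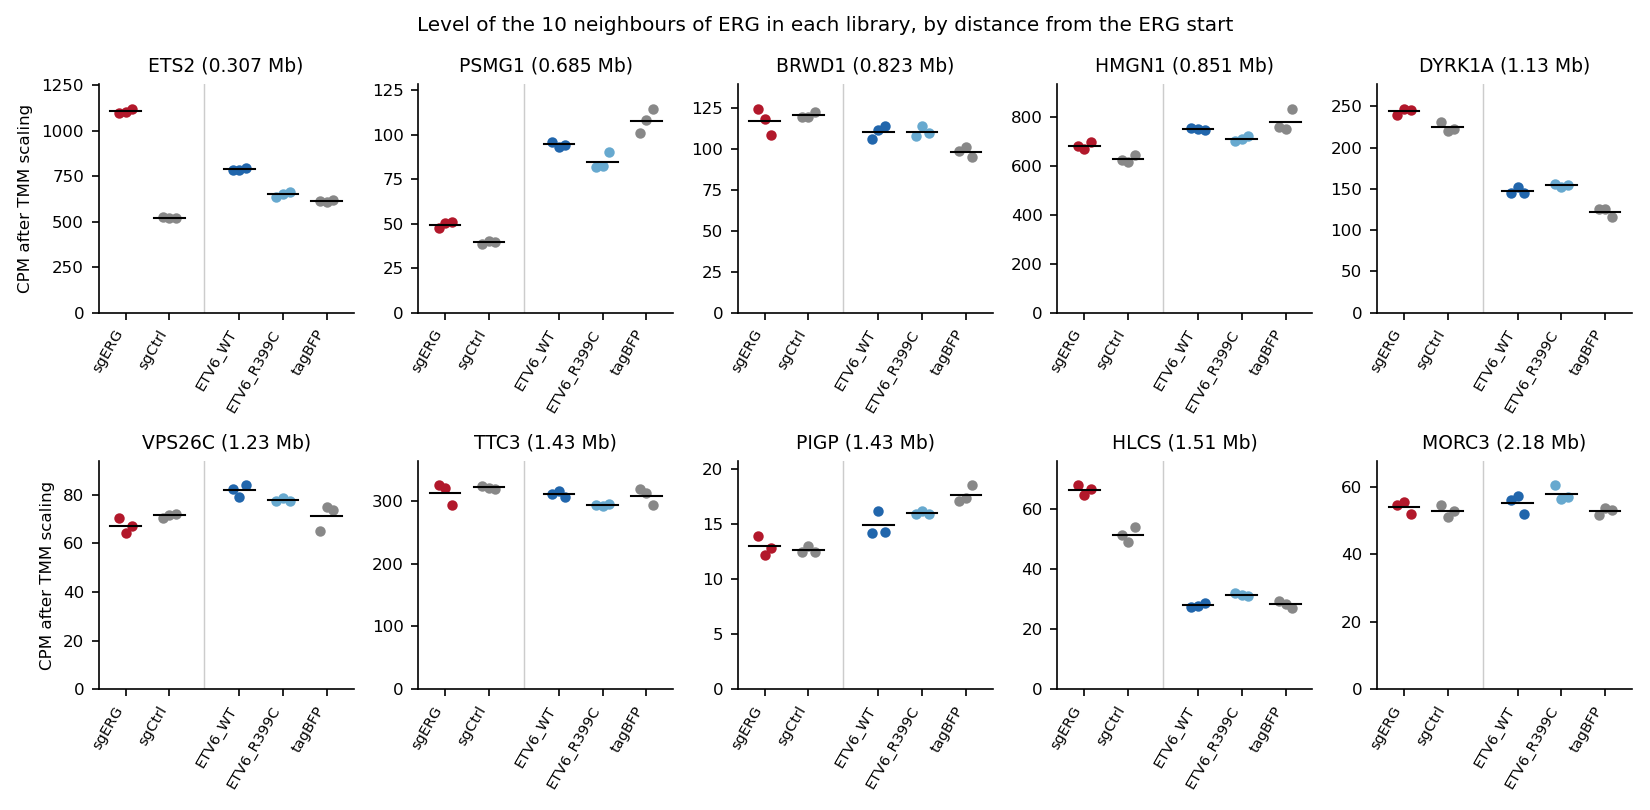
CPM after TMM scaling (vertical axis, from 0) of each neighbour in each of the 15 libraries, by group. Points are libraries and bars are group means, and the distance from the ERG start stands in each title. CPM was scaled within each experiment, on either side of the vertical line. ETS2 lies at 1098.7 to 1120.6 CPM in sgERG libraries, against 518.3 to 524.1 CPM in sgCtrl libraries.

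On the telomere side of ERG, ETS2 (chr21:38805307-38824955, forward strand, 306.8 kb away) encodes an ETS-family activator that responds to Ras and MAP kinase signalling. It stood at 1098.7, 1104 and 1120.6 CPM in sgERG libraries, against 524.1, 518.3 and 519.5 CPM in sgCtrl libraries. Each sgERG library held about double the level of any sgCtrl library, and the spread within a group was a small part of the gap. The log2 fold change was 1.09 ± 0.03 (SE; 95% interval 1.02 to 1.16; adjusted p = 2.4e-08). Across the 12 alternative settings it ran from 1.08 to 1.15.

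All 4 annotated transcripts of ETS2 stood higher with sgERG, in TPM as deposited. ETS2-202, the most abundant, stood at 347.1, 345.7 and 338.4 TPM in sgERG libraries, against 163.8, 163.1 and 161.6 TPM in sgCtrl libraries. ETS2-203 stood at 62.7, 63.6 and 63.5 TPM in sgERG libraries, against 29, 28.3 and 29.5 TPM in sgCtrl libraries. Neither transcript's groups overlapped. ETS2-204 had 64.2, 52.4 and 67.1 TPM in sgERG libraries, against 17.5, 18.1 and 12.6 TPM in sgCtrl libraries. ETS2-201, the least abundant, had 16.8, 15.3 and 15 TPM in sgERG libraries, against 6.72, 4.8 and 7.57 TPM in sgCtrl libraries. These 2 showed the same order of groups, with more spread between libraries, and single transcripts were not tested.

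**Figure D2:**
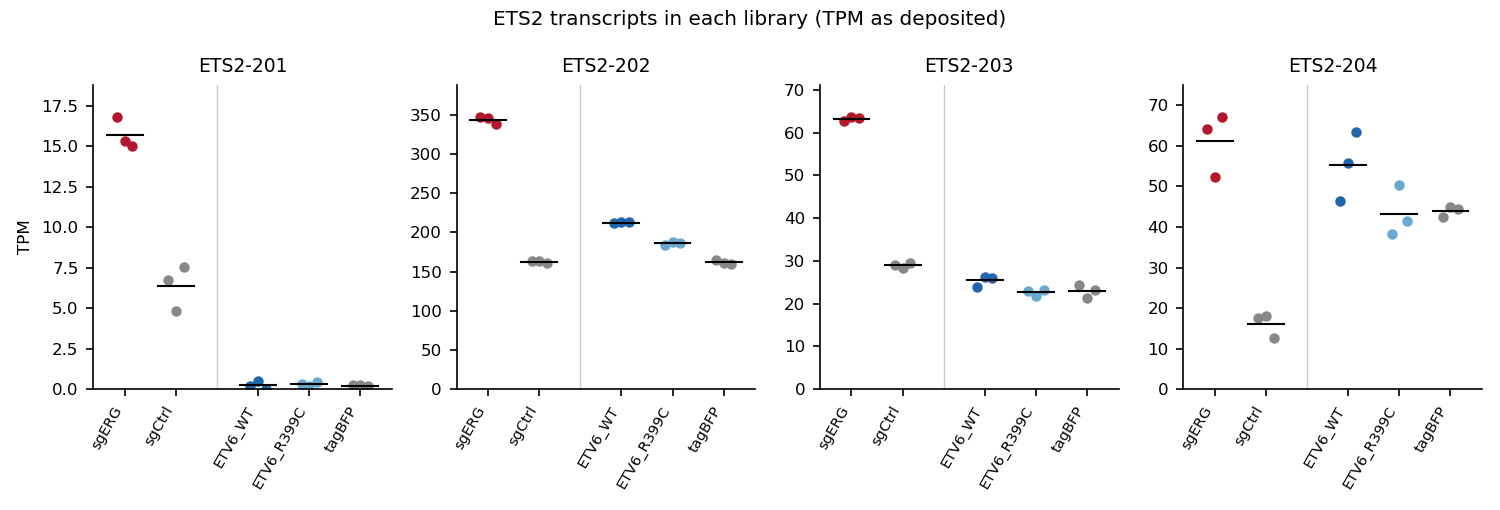
TPM as deposited (vertical axis, from 0) of the 4 annotated ETS2 transcripts in each library, by group. Points are libraries and bars are group means. In every panel the sgERG libraries lie above the sgCtrl libraries, and ETS2-201 is under 0.5 TPM in all 9 libraries of the ETV6 experiment.

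PSMG1 (chr21:39174769-39183851, reverse strand, 685.4 kb away) encodes a chaperone that helps to assemble the ring of alpha subunits of the proteasome. It stood at 47.3, 50.1 and 50.9 CPM in sgERG libraries, against 38.7, 40.2 and 39.8 CPM in sgCtrl libraries. The groups did not overlap, and the log2 fold change was 0.32 ± 0.05 (SE; 95% interval 0.21 to 0.43; adjusted p = 0.00169). PSMG1-202, its most abundant transcript, averaged 28.9 ± 2.44 TPM with sgERG and 22.2 ± 2.39 TPM with sgCtrl (SD, n = 3 each). BRWD1 (chr21:39184176-39321559, reverse strand, 823.1 kb away) starts on the far side of PSMG1 and encodes a bromodomain protein that reads acetylated histones and is needed in developing B cells. It stood at 124.4, 118.2 and 108.3 CPM in sgERG libraries, against 119.5, 119.7 and 122.3 CPM in sgCtrl libraries. The groups overlapped, and the 95% interval of its log2 fold change ran from -0.16 to 0.07 (adjusted p = 0.633).

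HMGN1 (chr21:39342315-39349647, reverse strand, 851.2 kb away) encodes a nucleosome-binding protein that loosens chromatin. It stood at 680.4, 666.1 and 698.4 CPM in sgERG libraries, against 622.4, 613.9 and 643 CPM in sgCtrl libraries. All sgERG libraries lay above all sgCtrl libraries, but the log2 fold change of 0.12 ± 0.04 (SE; 95% interval 0.04 to 0.2) missed the threshold with an adjusted p of 0.0529. It passed with DESeq2 (adjusted p = 0.0111), with protein-coding transcripts alone (0.046), in a fit of all 15 libraries (0.0236) and without sgERG replicate 3 (0.0461). Its 31 annotated pseudogenes, which could draw reads from it, took at most 0.102% of the reads of the family in any library.

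On the centromere side, DYRK1A (chr21:37365573-37526358, forward strand, 1.13 Mb away) encodes a dosage-sensitive kinase of serine, threonine and tyrosine. It stood at 239.5, 246.7 and 244.9 CPM in sgERG libraries, against 231.4, 219.5 and 223 CPM in sgCtrl libraries. Here too the groups did not overlap, while the log2 fold change of 0.12 ± 0.04 (SE; 95% interval 0.03 to 0.2) had an adjusted p of 0.0648. It passed with DESeq2 (adjusted p = 0.0313), with an offset for average transcript length (log2 fold change 0.19, adjusted p = 0.0238), in the fit of all 15 libraries (0.018) and without sgERG replicate 3 (0.0416). Across the 12 alternatives its log2 fold change ran from 0.05 to 0.19, and 8 gave no call. DYRK1A-207, annotated as a retained intron, had 100.8 to 115.9 TPM in sgERG libraries, against 87.6 to 91.6 TPM in sgCtrl libraries. The coding DYRK1A-201 had 30.3 to 32.6 TPM in sgERG libraries, against 28.8 to 31.5 TPM in sgCtrl libraries, and these overlapped. Single transcripts were not tested. VPS26C (chr21:37223420-37267919, reverse strand, 1.23 Mb away) encodes a subunit of retriever, a complex that returns membrane proteins from endosomes to the cell surface. It stood at 70.3, 64.3 and 67.4 CPM in sgERG libraries, against 70.6, 71.7 and 72.3 CPM in sgCtrl libraries. Every sgERG library was below every sgCtrl library, with a 95% interval of the log2 fold change from -0.19 to 0.01 (adjusted p = 0.234).

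TTC3 (chr21:37073226-37203112, forward strand) and PIGP (chr21:37059170-37073170, reverse strand) start 56 bases apart on opposite strands, both 1.43 Mb from ERG. TTC3 encodes a ubiquitin ligase that acts on the kinase Akt, and PIGP a small subunit of the enzyme that begins the synthesis of GPI anchors. TTC3 stood at 324.8, 320.2 and 292.9 CPM in sgERG libraries, against 324.2, 321.1 and 319.5 CPM in sgCtrl libraries. PIGP, the least abundant neighbour by read count, stood at 13.9, 12.2 and 12.8 CPM in sgERG libraries, against 12.5, 13 and 12.5 CPM in sgCtrl libraries. Both pairs of groups overlapped, with 95% intervals of the log2 fold change from -0.14 to 0.06 for TTC3 (adjusted p = 0.592) and from -0.12 to 0.21 for PIGP (adjusted p = 0.754).

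HLCS (chr21:36750888-36990236, reverse strand, 1.51 Mb away) encodes holocarboxylase synthetase, which attaches biotin to carboxylases. It stood at 67.8, 64.7 and 66.5 CPM in sgERG libraries, against 51.4, 49.1 and 53.9 CPM in sgCtrl libraries. The groups did not overlap, and the log2 fold change was 0.37 ± 0.05 (SE; 95% interval 0.26 to 0.47; adjusted p = 6.0e-04). HLCS-203 averaged 20.5 ± 0.0943 TPM with sgERG and 14.8 ± 1.27 TPM with sgCtrl, and HLCS-201, which starts at the outer end of the gene, 10.9 ± 0.764 TPM with sgERG and 8.45 ± 0.579 TPM with sgCtrl (SD, n = 3 each). MORC3 (chr21:36320189-36386148, forward strand, 2.18 Mb away), an ATPase of nuclear bodies that silences chromatin, stood at 54.5, 55.4 and 51.8 CPM in sgERG libraries, against 54.6, 50.9 and 52.7 CPM in sgCtrl libraries. Its groups overlapped, with a 95% interval of the log2 fold change from -0.08 to 0.14 (adjusted p = 0.71). MORC3 overlaps CHAF1B on the same strand, and BRWD1, HMGN1, DYRK1A, VPS26C, TTC3, MORC3 and HLCS overlap non-coding genes on the opposite strand. The strand setting of the counting is not given in the sources used here, so reads of these genes and their partners may not be fully separated. ETS2, PSMG1 and PIGP overlap no other annotated gene.

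Set in order of distance, the nearest neighbour had the largest rise and the next a smaller one, but the sequence did not fall off evenly. HLCS, the ninth by distance, rose by about as much as PSMG1, the second, while 6 genes between them did not pass. On the telomere side 2 of 4 rose, with a median log2 fold change of 0.22. On the centromere side 1 of 6 rose, with a median of 0.04. Of all genes tested, 14.6% passed, 6.89% as higher. The sides hold only 4 and 6 genes, and a difference between them was not tested. The other genes with a start within 3 Mb numbered 51, of which 14 had enough reads to be tested, and 2 of these rose, 3 fell and 9 did not pass. The share past the threshold was 35.7% of the 14, against the same 14.6%. Those that rose were MX2 (log2 fold change 0.25 ± 0.05, SE; adjusted p = 0.00597; 2.86 Mb) and DOP1B (0.16 ± 0.04; adjusted p = 0.0395; 2.34 Mb), and DOP1B missed the threshold under 8 of the 12 alternatives. With the length offset MX2 came to 0.16 (adjusted p = 0.109). The lost calls of DOP1B included leaving out sgERG replicate 1 or 2 or any sgCtrl replicate, with adjusted p values of 0.0695 to 0.145. Those that fell were MX1, an interferon-induced GTPase next to MX2 (-0.26 ± 0.05; adjusted p = 0.00943; 2.92 Mb), RUNX1 (-0.47 ± 0.04; adjusted p = 2.3e-05; 2.49 Mb) and SIM2. Without sgCtrl replicate 3, MX1 had an adjusted p of 0.0608 and 3 of these genes passed. Reads of the ETV6::RUNX1 fusion can be assigned to RUNX1 in this line. SIM2, 1.8 Mb away, had 4, 4 and 5 reads in sgERG libraries, against 21, 22 and 24 reads in sgCtrl libraries (log2 fold change -1.93 ± 0.38, SE; adjusted p = 0.00728).

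The nearest tested gene on the centromere side, KCNJ15, lies 0.343 Mb away, about as far as ETS2 on the other side, and is named for its position after its values were seen. Its log2 fold change was 0.26 ± 0.13 (SE; 95% interval -0.02 to 0.54; adjusted p = 0.209), on at most 328 reads in a library. Within 1 Mb of the start, 8 genes other than ERG were tested, of which ETS2 and PSMG1 rose (25.0%) and none fell. Of 110 tested chromosome 21 genes beyond 3 Mb, 12 rose and 7 fell (17.3% past the threshold), with a median log2 fold change of 0.05. Of all genes except ERG, 14.6% passed.

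**Figure D3:**
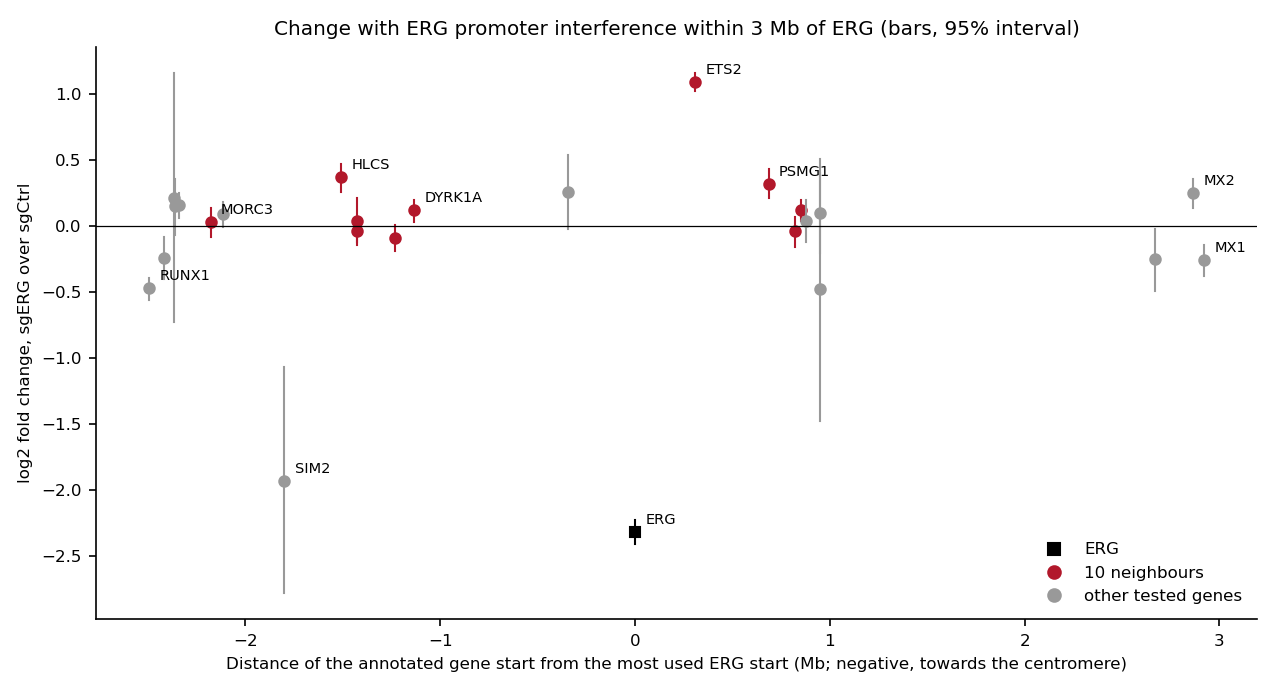
Log2 fold change of sgERG over sgCtrl (vertical axis) against the signed distance of each tested gene's start from the most used ERG start in Mb (horizontal axis; positive is towards the telomere). Points are fitted changes and lines their 95% intervals. ERG, at -2.32, stands alone at the centre, and ETS2 at 1.09 is the highest point.

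The functional partners and paralogues of the 10 genes passed the test about as often as genes in general with sgERG. Of 51 tested, 5 rose, 2 fell and 44 did not pass, a share of 13.7% beside the 14.6% of all genes, with a median log2 fold change of 0.01. ETS1, the paralogue of ETS2, stood at 71.1, 74.8 and 65.5 CPM in sgERG libraries, against 56.4, 60.5 and 57.2 CPM in sgCtrl libraries (log2 fold change 0.28 ± 0.06, SE; adjusted p = 0.00671). HMGN2, the closest relative of HMGN1, stood at 611.2, 592.5 and 624.5 CPM in sgERG libraries, against 515.6, 530.1 and 530.6 CPM in sgCtrl libraries (0.21 ± 0.04, SE; adjusted p = 0.00289). In both, the groups did not overlap. Among 6 proteasome assembly factors other than PSMG1, 1 rose, PSMG3 (0.22 ± 0.06, SE; adjusted p = 0.0277), and that call was lost under 5 of the 12 alternatives, among them without sgERG replicate 1 (0.052), sgCtrl replicate 1 (0.132) or sgCtrl replicate 3 (0.12).

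Of 5 relatives and partners of DYRK1A tested, 1 fell, 1 rose and 3 did not pass. DYRK3 fell to 118.6, 111.7 and 109.4 CPM in sgERG libraries, against 215.9, 222.9 and 214.1 CPM in sgCtrl libraries, a log2 fold change of -0.94 ± 0.04 (SE; adjusted p = 3.0e-07). DYRK1B rose to 8.99, 9.45 and 10 CPM in sgERG libraries, against 6.82, 7.57 and 5.9 CPM in sgCtrl libraries, a log2 fold change of 0.49 ± 0.11 (SE; adjusted p = 0.0114). Without sgCtrl replicate 3 the adjusted p of DYRK1B was 0.0515. Among 15 other members of the retriever and CCC complexes, in which VPS26C works, CCDC93 fell (-0.29 ± 0.06, SE; adjusted p = 0.00723) and 14 did not pass. Without sgERG replicate 1, COMMD5 (log2 fold change 0.33, adjusted p = 0.0435) and COMMD6 (-0.25, 0.0489) of that list also passed. Of 7 carboxylases and biotin enzymes around HLCS, PC, pyruvate carboxylase, rose (0.30 ± 0.08, SE; adjusted p = 0.0283), a call lost under 6 of the 12 alternatives. These included leaving out sgERG replicate 1 or 3 or sgCtrl replicate 1 or 3, with adjusted p values of 0.0535 to 0.127. PCCA, a subunit of propionyl-CoA carboxylase, had -0.32 ± 0.10 (SE; adjusted p = 0.0518) and passed with DESeq2 (0.0208), without a filter on low counts (0.0149), in the fit of all 15 libraries (0.0101) and without sgERG replicate 1 (log2 fold change -0.44, adjusted p = 0.00611). Without sgCtrl replicate 3, 4 of the 51 partner genes passed in all. None of the 6 GPI-GlcNAc transferase genes tested beside PIGP, 3 retromer genes, 2 BRWD1 relatives or 2 MORC3 relatives passed the test. In the fit of all 15 libraries PIGQ (log2 fold change 0.11, adjusted p = 0.041) and MORC2 (0.09, 0.0477) passed as higher, and the retromer genes VPS35 (-0.11, 0.018) and VPS26A (-0.16, 0.0257) as lower, and 12 partner genes passed in all.

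In the ETV6 experiment, which shares no library with the ERG experiment, ETV6_WT over tagBFP gave 4 neighbours higher, 2 lower and 4 not past the threshold. Of all 14242 genes tested there, 36.5% passed, 17.6% higher and 18.9% lower. In 6 of the 10, the libraries of the groups did not overlap, which held for 48.2% of all genes tested. The marker sums given above for these groups also lay apart, and their part in these values was not tested. ETS2 rose to 784.5, 787.3 and 798.3 CPM in ETV6_WT libraries, against 613.8, 609.2 and 621.4 CPM in tagBFP libraries, a log2 fold change of 0.36 ± 0.02 (SE; 95% interval 0.31 to 0.41; adjusted p = 4.6e-07). DYRK1A rose to 145.2, 152.4 and 145.5 CPM in ETV6_WT libraries, against 125.1, 125.8 and 116.1 CPM in tagBFP libraries (0.27 ± 0.04, SE; adjusted p = 1.1e-04). In both genes the groups were apart, and both calls held under all 12 alternatives.

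BRWD1 rose by 0.17 ± 0.04 (SE) in log2 terms in ETV6_WT over tagBFP (adjusted p = 0.00295), and VPS26C by 0.20 ± 0.05 (SE; adjusted p = 0.0071). With an offset for average transcript length, BRWD1 came to 0.07 (adjusted p = 0.451) and VPS26C to -0.09 (adjusted p = 0.526). PSMG1 fell to 96, 93.3 and 94.3 CPM in ETV6_WT libraries, against 100.9, 108.1 and 114.4 CPM in tagBFP libraries, a log2 fold change of -0.19 ± 0.05 (SE; adjusted p = 0.0103), and of -0.18 with the length offset (adjusted p = 0.0506). PIGP fell to 14.2, 16.2 and 14.3 CPM in ETV6_WT libraries, against 17.1, 17.4 and 18.5 CPM in tagBFP libraries (-0.24 ± 0.06, SE; adjusted p = 0.0107). HMGN1, TTC3, MORC3 and HLCS did not pass, with log2 fold changes of -0.05, 0.01, 0.07 and -0.02 and 95% intervals within -0.13 to 0.16. ERG rose by 0.12 ± 0.03 (SE) in log2 terms with ETV6_WT (adjusted p = 0.0032).

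ETV6_R399C was set against the same tagBFP libraries, so the comparisons are not independent. It gave 5 neighbours higher and 2 lower, where 40.9% of all genes tested passed, 18.8% higher and 22.1% lower. In 9 of the 10 the groups did not overlap, against 50.8% of all genes tested. DYRK1A rose to 155.6, 152.7 and 155 CPM in ETV6_R399C libraries, against the tagBFP values above (log2 fold change 0.34 ± 0.04, SE; adjusted p = 2.0e-05). PSMG1 fell to 81.7, 82.3 and 90 CPM in ETV6_R399C libraries (-0.35 ± 0.05, SE; adjusted p = 1.8e-04). Both lay outside the range of the tagBFP libraries and kept their calls under every alternative. BRWD1 was higher by 0.17 ± 0.04 (SE; adjusted p = 0.00258) and came to 0 with the length offset (adjusted p = 0.984). ETS2 was higher by 0.08 ± 0.02 (SE; adjusted p = 0.0168), HLCS by 0.15 ± 0.05 (adjusted p = 0.0206) and MORC3 by 0.14 ± 0.04 (adjusted p = 0.027), and HMGN1 lower with -0.13 ± 0.04 (adjusted p = 0.0121). Each of these 4 calls was lost under at least 1 alternative. ETS2 had an adjusted p of 0.213 with the length offset, 0.062 without ETV6_R399C replicate 2 and 0.0591 without tagBFP replicate 2. HLCS had 0.0543 without tagBFP replicate 2 and 0.0731 without tagBFP replicate 3 or with DESeq2. MORC3 had 0.0663 without ETV6_R399C replicate 1, 0.0953 without tagBFP replicate 1 and 0.0501 without tagBFP replicate 2, and its log2 fold change was -0.07 (adjusted p = 0.694) with protein-coding transcripts alone. HMGN1 had 0.095 without ETV6_R399C replicate 1. TTC3, PIGP and VPS26C did not pass, with 95% intervals within -0.28 to 0.24, and TTC3 did without tagBFP replicate 3 (log2 fold change -0.1, adjusted p = 0.0065). VPS26C passed under 6 alternatives, among them those without tagBFP replicate 2 (adjusted p = 0.032) or replicate 3 (0.0404).

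Between the ETV6 proteins, ETV6_WT over ETV6_R399C, 2 neighbours were higher and 1 lower, where 21.4% of all genes tested passed, 12.1% higher and 9.29% lower. In 7 of the 10 the groups did not overlap, against 38.4% of all genes tested. ETS2 at 784.5 to 798.3 CPM in ETV6_WT libraries lay above its 635.5 to 663 CPM in ETV6_R399C libraries, with a log2 fold change of 0.28 ± 0.02 (SE; adjusted p = 1.2e-05). This was the one call among the 10 that held under all 12 alternatives. PSMG1 was higher by 0.16 ± 0.05 (SE; adjusted p = 0.0425) and HLCS lower with -0.17 ± 0.05 (SE; adjusted p = 0.0208). The call of PSMG1 was lost without any of ETV6_WT replicates 1 to 3 or ETV6_R399C replicates 1 and 2, with adjusted p values up to 0.208. That of HLCS was lost without ETV6_R399C replicate 1 (0.0558) or replicate 2 (0.0529) and with DESeq2 (0.0734). With the length offset both were lost.

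**Figure D4:**
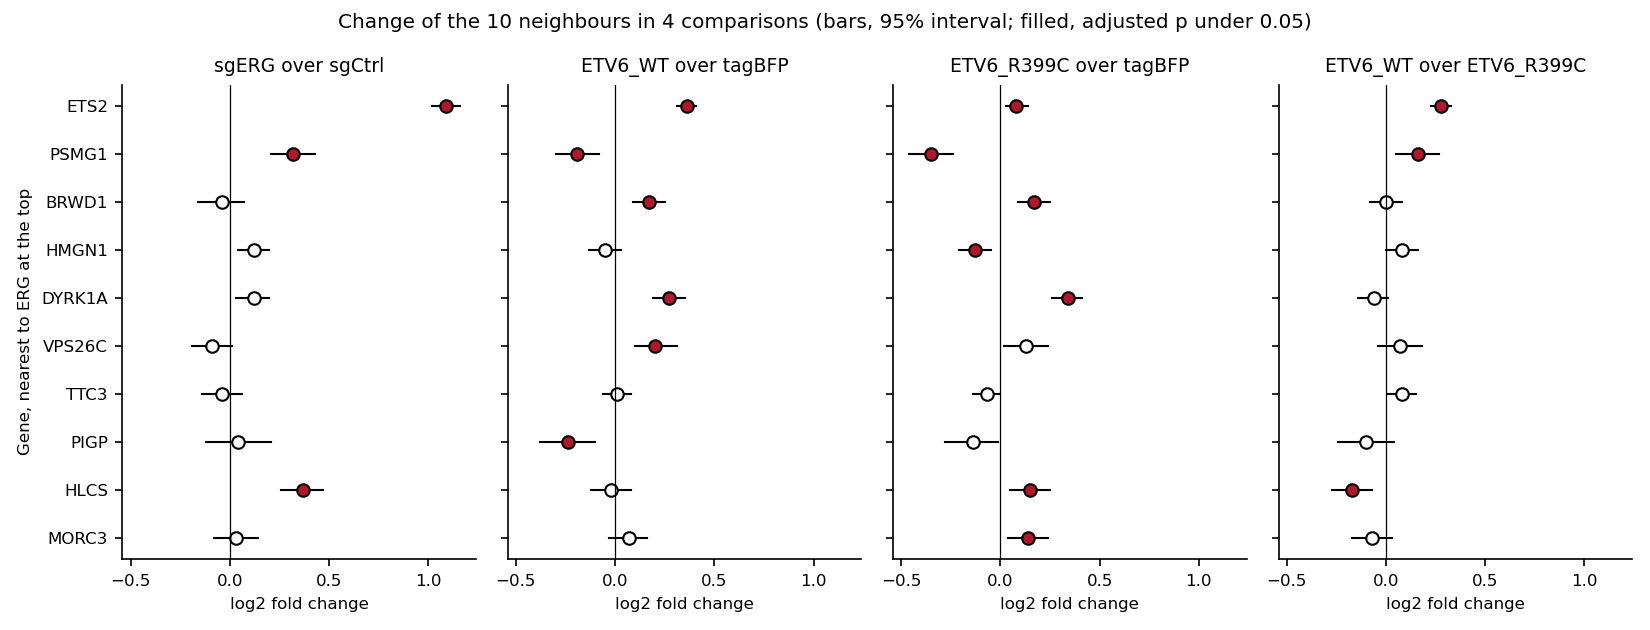
Log2 fold change (horizontal axis) of the 10 neighbours in 4 comparisons, nearest to ERG at the top. Points are fitted changes, lines 95% intervals, and filled points have an adjusted p under 0.05. ETS2 lies above 0 in all 4 panels, at 1.09, 0.36, 0.08 and 0.28, and the last 3 panels share libraries.

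The difference between the effect of sgERG over sgCtrl and that of ETV6_WT over tagBFP was tested in a fit of all 15 libraries, in which 30.0% of 14969 genes passed, 15.7% higher and 14.3% lower, and 8 of the 10 neighbours did, 5 higher and 3 lower. The experiments also differ in vector, sorting and hours of induction, which cannot be told apart from the difference in what was perturbed. The effect of sgERG was higher by 0.73 ± 0.03 on the log2 scale for ETS2 (SE; adjusted p = 1.7e-10), 0.51 ± 0.07 for PSMG1 (2.7e-05), 0.39 ± 0.06 for HLCS (2.2e-04), 0.28 ± 0.09 for PIGP (0.0288) and 0.18 ± 0.05 for HMGN1 (0.0152). PSMG1 thus rose in the ERG experiment and fell in the ETV6 experiment, while ETS2 rose in both by different amounts. The effect of sgERG was lower with a difference of -0.29 ± 0.07 for VPS26C (SE; adjusted p = 0.0041), -0.21 ± 0.06 for BRWD1 (0.0182) and -0.15 ± 0.05 for DYRK1A (0.0256). TTC3 (adjusted p = 0.523) and MORC3 (0.79) did not pass. With the length offset the calls of HLCS (adjusted p = 0.133), PIGP (0.09), VPS26C, BRWD1 (1 for each) and DYRK1A (0.511) were lost. Leaving out 1 library ended the call of PIGP in 6 cases, of DYRK1A in 4 (without sgERG replicate 1, sgCtrl replicate 1, ETV6_WT replicate 2 or tagBFP replicate 3) and of BRWD1 in 1 (without ETV6_WT replicate 3). For PIGP the libraries were sgERG replicate 1, sgCtrl replicates 1 and 3, ETV6_WT replicates 1 and 3 and tagBFP replicate 3, with adjusted p values from 0.0583 to 0.0741. The call of PIGP was also lost without a filter on low counts (0.0794) and with protein-coding transcripts alone (0.0589).

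Per length, in TPM, HMGN1 was the most abundant neighbour in every group and ETS2 the second. HMGN1 averaged 843.2 ± 18.5 TPM with sgERG, 767.1 ± 14.6 with sgCtrl, 909.3 ± 0.601 with ETV6_WT, 916.8 ± 4.53 with ETV6_R399C and 934.6 ± 5.18 with tagBFP (SD, n = 3 each). ETS2 averaged 483.9 ± 6.93 TPM with sgERG, 214.2 ± 2.88 with sgCtrl, 293.5 ± 10.5 with ETV6_WT, 252.3 ± 7.51 with ETV6_R399C and 229.3 ± 2.41 with tagBFP (SD, n = 3 each). In sgERG libraries the order below them was DYRK1A (168.2 TPM), TTC3 (133.1), PSMG1 (85), VPS26C (56.8), HLCS (35.3), BRWD1 (31.4), MORC3 (22.5) and PIGP (21.2). The last pair overlapped, and the other neighbours in that order did not. In sgCtrl libraries the order was DYRK1A (145.2 TPM), TTC3 (130.4), PSMG1 (68.5), VPS26C (59.7), BRWD1 (29.6), HLCS (26), MORC3 (23.6) and PIGP (19.8), and HLCS and MORC3 overlapped.

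The order differed between the experiments. In tagBFP libraries PSMG1 ranked 3 with 188.7 ± 5.01 TPM and HLCS ranked 10 with 7.68 ± 0.879 TPM (SD, n = 3 each), while in sgCtrl libraries their ranks were 5 and 8. DYRK1A averaged 52 ± 5.89 TPM in tagBFP libraries and 145.2 ± 4.05 TPM in sgCtrl libraries (SD, n = 3 each). Much of that was DYRK1A-207, annotated as a retained intron, with 22.9 ± 2.67 TPM in tagBFP libraries and 89.8 ± 2.04 TPM in sgCtrl libraries (SD, n = 3 each). HMGN1-203 stood the other way, with 355.7 ± 6.51 TPM in tagBFP libraries and 41.9 ± 4.08 TPM in sgCtrl libraries (SD, n = 3 each). These levels were not compared by a test, since vector, sorting and induction time differ between the experiments along with any difference in library preparation.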

How the data were processed

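Per the file headers, the deposited tables give for each transcript an estimated count of reads, TPM, a length and an effective length. Per the submitters' processing notes, Salmon 0.11.3 and hg38 were used, and the strand setting is not given in the sources used here. Of 167268 transcripts, 90.3% were found in GENCODE 29, and the rest, with 6.67% to 7.56% of a library's reads, were left out. Estimated counts were summed per gene and rounded. The test was edgeR 4.0.16 (R 4.3.3; quasi-likelihood, TMM scaling, default filter on low counts, Benjamini-Hochberg adjustment, threshold 0.05), fitted apart to the 6 libraries of the ERG experiment and the 9 of the ETV6 experiment. Its biological coefficient of variation was 6.24% and 4.95%. The test was also run on simulated counts, and the outcome of that run is not reported here. CPM values follow TMM scaling within each experiment, and TPM values were summed per gene as the authors deposited them. The SE is the log2 fold change divided by the root of the F statistic. Counts of replicate pairs differed beyond sampling noise (chi-square over its degrees of freedom 2.79 to 14.0), so no table was counted as a second deposit of another. This does not show that the replicates were separate cultures.

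The members, the gene lists and the tests were chosen with earlier results of these data known. Named are ERG, the 10 neighbours, the genes within 3 Mb that passed in sgERG over sgCtrl (at most 12) and up to 3 genes per partner list with the smallest p. KCNJ15 and SETD4 were added after their values were seen. Alternatives were DESeq2 1.42.0 with its size factors, no filter on low counts, an offset for average transcript length, protein-coding transcripts alone, a replicate block, 1 fit of all 15 libraries and each library left out in turn. Intervals cover the spread between libraries.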

Additional observations from a re-analysis of the deposited data

How the results depend on the processing

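Of 50 results for the 10 neighbours (each in 5 contrasts), 31 kept their side of the threshold under every alternative. Under at least 1 alternative, 14 lost a call, 4 gained one, and 2 called ones changed sign without passing. Some that did not pass changed sign, such as BRWD1 in sgERG over sgCtrl (-0.09 to 0.06). The 2 called ones were VPS26C in ETV6_WT over tagBFP with the length offset (-0.09, adjusted p = 0.526) and MORC3 in ETV6_R399C over tagBFP with protein-coding transcripts alone (-0.07, adjusted p = 0.694). MORC3 is counted among the 14 as well, while VPS26C, whose call was also lost, is not. DPM2, a partner of PIGP, also changed sign in ETV6_R399C over tagBFP with protein-coding transcripts alone (0.22, adjusted p = 0.184). With sgERG over sgCtrl, 5 neighbours passed with DESeq2 and 5 with all 15 libraries in 1 fit, and 12 partner genes in that fit. The share of all genes that passed under those settings is not given here. With the length offset, counts past the threshold in ETV6_WT over tagBFP were 3 neighbours, 3 other genes within 3 Mb, 14 partners and 2913 of all genes. In ETV6_R399C over tagBFP they were 4, 1, 13 and 3427, in ETV6_WT over ETV6_R399C 1, 2, 7 and 1236, and for the difference of effects 3 neighbours and 2647 of all genes. The filter on low counts does not use the offset. As in the main fits, 14242 genes were tested in the ETV6 experiment and 14969 for the difference. Leaving out 1 library gave 3 to 5 neighbours, 3 to 7 other genes within 3 Mb, 4 to 8 partners and 1160 to 2302 of all genes in sgERG over sgCtrl. It gave 1 to 3 neighbours and 2008 to 3110 of all genes in ETV6_WT over ETV6_R399C, where the log2 fold change of ERG ran from 0.09 to 0.13 and lost its call without ETV6_WT replicate 1 or 2 or ETV6_R399C replicate 1. Fewer libraries enter those fits, and otherwise the cause was not tested. The filter on low counts was applied anew in each, so the number of genes tested can differ and these counts are not shares. Deviations of log CPM from the group mean were correlated between libraries of different groups. Pairs with the same replicate number gave 0.024 to 0.098 in the ERG experiment and -0.077 to 0.071 in the ETV6 experiment. Pairs with other numbers gave -0.089 to 0.05 and -0.075 to 0.069. The main fits did not pair the libraries, and correlations this small cannot show that same-number replicates were handled apart. With a replicate block 3 neighbours and 1536 of all genes passed in sgERG over sgCtrl. Among the 10 neighbours PIGP had the fewest reads, 303 to 606 a library.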
